A study of Mus musculus with 24 samples.

Results

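Open chromatin regions that gained accessibility with the synthetic glucocorticoid dexamethasone (Dex) and not with interleukin 4 (IL4) are described here in mouse macrophages. They are peaks of an ATAC-seq experiment, in which a transposase cuts and tags accessible DNA, so that the number of reads in a peak measures how open it is. The regions were selected on the wild-type (WT) libraries alone. Counts were divided by the library's total in peaks and multiplied by 1000000 (CPM), and log2(CPM + 0.5) was averaged over the libraries of a group. A peak was taken when WT Dex exceeded WT vehicle by at least 1 on this scale, when WT IL4 differed from WT vehicle by less than 0.5, and when all 4 WT Dex libraries lay above all 4 WT vehicle libraries. This chose 569 of 144411 peaks, a share of 0.394%, from which nothing is read here because these values made the choice. The first condition alone held for 826 peaks, and 818 of these also showed no overlap. Among those left out at the IL4 condition, 222 were at least 0.5 higher with IL4 and 27 at least 0.5 lower.

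The cells were macrophages grown for 5 days from the bone marrow of male C57BL/6 mice aged 8 to 10 weeks. The knockout (KO) cells had the genotype LysM-Cre+/+; GRIP1fl/fl and the WT cells LysM-Cre+/+; GRIP1wt/wt. Both genotypes therefore carry LysM-Cre, a recombinase driven by the lysozyme M gene in myeloid cells, and deletion in the KO is limited to cells that make it. Each genotype was given 100 nM Dex, 10 ng/ml IL4 or vehicle, with 4 libraries per group. The titles give 24 hours for every group, whereas the treatment label of both vehicle groups reads 25 hours. Whether the 4 libraries of a group are 4 mice, 4 cultures or repeats of 1 is not stated in the labels, so each p-value measures only the spread between libraries, which may be technical.

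Dex enters the cell and binds the glucocorticoid receptor, a nuclear receptor that then binds DNA and recruits coactivators. The receptor binds as a dimer to a palindrome made of a pair of 6-base repeats, usually far from promoters, and in macrophages it raises anti-inflammatory and clearance genes and represses inflammatory ones. GRIP1, encoded by Ncoa2, is a p160 coactivator that binds nuclear receptors and brings histone acetyltransferases to them. IL4 acts through another route, the transcription factor STAT6.

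Most of the regions lie away from promoters, but 16 of them overlapped the 250 bases before the annotated start of a gene, 1 window for each of 16 genes. The regions described below at the starts of Hp and Zbtb16 are not among the 16. The 16 windows therefore do not cover every region at a promoter. The sequences of 5 such windows, from RefSeq on the GRCm38.p6 assembly (mm10), show what these opened promoters contain. F13a1 and Cd38 are shown because each gene has several of the regions, and the others because they hold matches to the receptor's motif. Matches are in capitals, read 5′ to 3′ on the strand of the gene, and both strands were searched.
F13a1, chr13:37049214-37049463, minus strand, no match: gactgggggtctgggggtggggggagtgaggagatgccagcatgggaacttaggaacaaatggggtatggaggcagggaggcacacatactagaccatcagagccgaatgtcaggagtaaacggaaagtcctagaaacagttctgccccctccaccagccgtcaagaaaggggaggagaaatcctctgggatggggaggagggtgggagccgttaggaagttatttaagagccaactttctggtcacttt
Cd38, chr5:43868559-43868808, plus strand, no match: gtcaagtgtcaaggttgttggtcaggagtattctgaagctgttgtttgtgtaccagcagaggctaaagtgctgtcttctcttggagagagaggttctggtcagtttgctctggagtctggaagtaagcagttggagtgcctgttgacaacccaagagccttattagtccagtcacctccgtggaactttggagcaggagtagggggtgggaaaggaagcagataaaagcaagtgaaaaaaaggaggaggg
Orm2, chr4:63362199-63362448, plus strand, single repeat and AP-1 motif: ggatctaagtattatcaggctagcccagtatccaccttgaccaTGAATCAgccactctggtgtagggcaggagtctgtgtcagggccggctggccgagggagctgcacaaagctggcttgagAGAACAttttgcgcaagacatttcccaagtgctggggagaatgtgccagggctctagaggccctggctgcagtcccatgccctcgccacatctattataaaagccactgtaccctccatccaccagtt
Gm35268, chr19:27312625-27312874, plus strand, core element and single repeat: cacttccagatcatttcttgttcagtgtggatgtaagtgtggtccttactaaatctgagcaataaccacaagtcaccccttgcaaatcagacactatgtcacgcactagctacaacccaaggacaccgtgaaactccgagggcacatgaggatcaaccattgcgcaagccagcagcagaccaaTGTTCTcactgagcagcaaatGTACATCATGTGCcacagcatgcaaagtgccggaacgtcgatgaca
4930430J02Rik, chr9:57390820-57391069, plus strand, core element, single repeat and AP-1 motif: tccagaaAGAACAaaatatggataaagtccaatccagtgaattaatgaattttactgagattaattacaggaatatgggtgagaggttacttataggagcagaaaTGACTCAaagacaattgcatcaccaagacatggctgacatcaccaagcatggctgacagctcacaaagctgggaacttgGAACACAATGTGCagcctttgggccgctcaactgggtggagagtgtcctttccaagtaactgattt
The full palindrome of the glucocorticoid receptor, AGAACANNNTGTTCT, was in none of the 16 windows and in 3 of the 32851 windows of all genes. Its core, GNACANNNTGTNC, was in 2 of the 16 (12.5%), against 0.387% of all windows. The single repeat AGAACA, which a full palindrome also contains, was in 6 (37.5%), against 16.1% of all. The AP-1 motif TGANTCA was in 2 (12.5%), against 6.75%. The motif of PU.1, a transcription factor that macrophages depend on, GAGGAAGT, was in none of the 16 and in 2.44% of all windows. The string TTGCNNCAA, searched for C/EBP, was in none and in 1.74%. The shorter form TTGCGCAA, which stands in the Orm2 and Gm35268 windows, does not match that string and was not counted. These C/EBP counts therefore hold for the searched string only. One of the genes, Gm454, has 4 windows that differ by a few bases, of which the first listed was counted. Of the 4, 2 hold a match to TTGCNNCAA at their edge. With 16 windows these shares are a description of letters in a short stretch, not of binding.

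The 24 libraries held between 5820149 and 21939330 counts in peaks. The lowest total was that of WT Dex replicate 2, one of the libraries that chose the regions. The cells carried the open promoters of macrophages: all 8 marker genes, among them Csf1r and Adgre1, had a peak within 1 kb of the start. Their summed level was 210.0 to 237.0 CPM in KO Dex, 224.0 to 245.0 CPM in KO vehicle, 231.0 to 254.0 CPM in WT Dex and 221.0 to 245.0 CPM in WT vehicle libraries. Markers of other cells summed to less, but part of each list had such a peak. It was found for 6 of 10 dendritic cell, 4 of 7 B cell, 4 of 12 T and NK cell and 4 of 8 mast cell and basophil markers. The same held for 3 of 9 erythroid and megakaryocyte and 3 of 9 fibroblast and stromal markers. Markers without one included Ly6g and Elane (neutrophils), Pax5 (B cells), Cd3e (T cells), Gata1 (erythroid cells) and Col1a1 (stroma). Neutrophil markers with a peak, 7 of 12, summed to 58.6 to 71.2 CPM in KO Dex and 45.6 to 62.2 CPM in KO vehicle libraries; their part in the results was not tested. The floxed gene was looked at first in its own peaks. Of 36 peaks inside Ncoa2, 2 were lower in all KO than in all WT libraries and 2 were higher. The pair that was lower averaged 2.11 CPM in KO and 5.28 CPM in WT libraries (chr1:13153076-13153733), and 3.11 CPM in KO and 6.85 CPM in WT libraries (chr1:13256160-13256636). The pair that was higher averaged 29.1 CPM in KO and 22.4 CPM in WT libraries (chr1:13206487-13207530), and 1.25 CPM in KO and 0.292 CPM in WT libraries (chr1:13214072-13214211). The labels do not say which exon is floxed, so these values do not measure the deletion.

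In KO cells, which played no part in the choice, the regions opened with Dex as a group. The median over the 569 regions was 5.42, 5.50, 5.64 and 5.72 CPM in the KO Dex libraries, against 2.16, 2.06, 2.12 and 2.00 CPM in the KO vehicle libraries. The KO IL4 libraries lay with vehicle, at 2.23, 2.16, 2.12 and 2.00 CPM. No KO Dex library came near the others. In WT, where the Dex and vehicle values made the choice, the medians averaged 6.14 ± 0.0997 CPM with Dex, 2.04 ± 0.078 CPM with IL4 and 1.96 ± 0.0698 CPM with vehicle (SD, n = 4 each). The regions took 0.518% of all counts in KO Dex, 0.205% in KO IL4 and 0.203% in KO vehicle libraries. The median region held 54 to 102 counts in a KO Dex library and 16 to 29 in a KO vehicle library, so single regions with few counts are less certain than the medians.

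**Figure D1:**
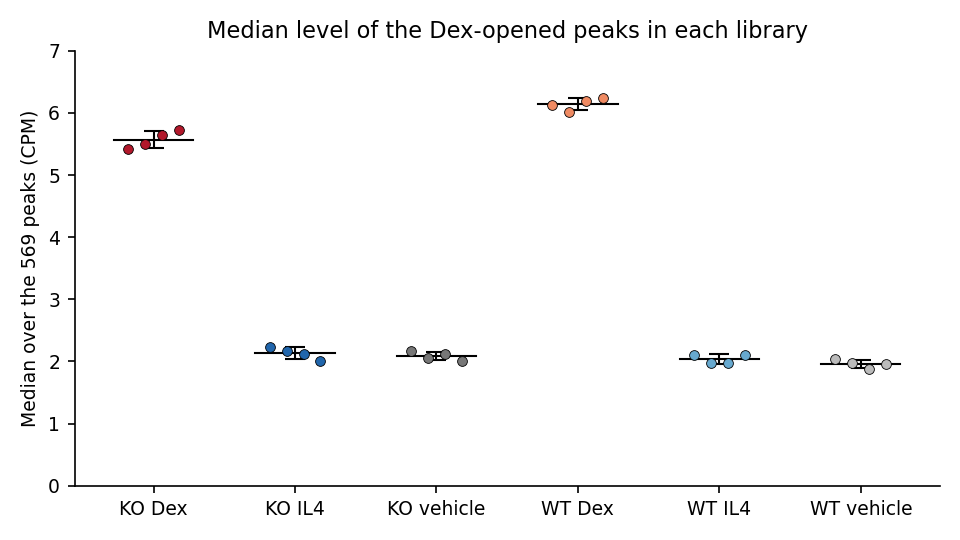
Median level (CPM) of the 569 Dex-opened regions in each library, by group; points are the 4 libraries of a group, lines the mean and bars the SD. The 4 KO Dex libraries sit between 5.42 and 5.72 CPM and the 4 WT Dex libraries between 6.01 and 6.24 CPM, while all IL4 and vehicle libraries sit between 1.87 and 2.23 CPM.

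Each peak was tested in the 12 KO libraries alone. A peak counts as called at an adjusted p below 0.05 over all 125167 tested peaks (edgeR quasi-likelihood test, Benjamini-Hochberg). Of the 569 regions, 560 had enough counts to be tested, and 543 (97.0%) rose in KO Dex against KO vehicle. Of all tested peaks 6.92% rose. None of the regions fell, whereas 7.14% of all tested peaks did. The 17 others were above vehicle in KO Dex without passing. The 9 untested regions averaged at most 1.58 CPM in KO Dex. Without the filter on low counts all 569 could be fitted, and 551 rose. The log2 fold change of the tested regions had a median of 1.34 and ran from 0.43 to 4.04, beside a median of -0.01 over all tested peaks. In 521 of the 560 (93.0%) all 4 KO Dex libraries lay above all 4 KO vehicle libraries, which held for 6.41% of all tested peaks. In the authors' deposited table, 416 of the 423 regions listed there were called higher in KO Dex against KO vehicle and 0 lower, with a median of 1.36, while 9.42% of the peaks listed were called higher.

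The region with the largest WT difference lay inside Zbtb16, which encodes the zinc finger transcription factor PLZF, 112.3 kb from its transcription start site (TSS), at chr9:48723286-48724099. Its level was 25.5, 26.2, 19.6 and 22.2 CPM in the KO Dex libraries and 1.40, 1.14, 2.25 and 2.27 CPM in the KO vehicle libraries. The groups did not overlap, and the log2 fold change was 3.81 ± 0.15 (SE; adjusted p = 1.1e-34). With IL4 it stayed at 1.2 to 1.85 CPM in the KO libraries. Zbtb16 had 6 of the regions across 113 kb, and 5 of them rose in KO Dex. One spans the TSS (chr9:48835579-48836733), with 34.6, 37.8, 30.9 and 30.5 CPM in KO Dex and 7.49, 8.94, 7.41 and 7.35 CPM in KO vehicle libraries, a change of 2.12 ± 0.10 (adjusted p = 3.46e-30). The member that did not pass, at chr9:48760282-48760810, differed widely between libraries. It had 8.83, 4.96, 3.91 and 0.56 CPM in KO Dex and 3.43, 1.28, 1.19 and 0.998 CPM in KO vehicle, with replicate 4 lowest in both groups (1.40 ± 0.82, adjusted p = 0.331).

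Fkbp5 encodes FKBP51, a co-chaperone that lowers the hormone affinity of the receptor and is a standard readout of glucocorticoid action. A region 0.9 kb upstream of the start that the authors' table lists (chr17:28518014-28518761) had 43.7, 47.1, 46.1 and 49.6 CPM in KO Dex and 6.35, 3.90, 6.75 and 5.71 CPM in KO vehicle libraries. This is a log2 fold change of 3.15 ± 0.11 (adjusted p = 5.78e-39), and no library of one group reached the other. A neighbour at chr17:28513626-28514236 rose by 2.68 ± 0.10, to 55.7 CPM in KO Dex against 9.04 CPM in KO vehicle, and the third region given to the gene by 1.29 ± 0.12. Further regions lie in the same stretch of chromosome 17. One inside the Fkbp5 gene (chr17:28419745-28421130) had 44.5, 50.4, 42.4 and 43.2 CPM in KO Dex, against 15.0, 15.5, 15.1 and 15.1 CPM in KO vehicle. It rose by 1.62 ± 0.08 with Dex and fell by 0.33 with IL4 (SE 0.10, adjusted p = 0.00684). Beyond it, 4 regions whose nearest listed start is that of Tulp1, a photoreceptor gene of the tubby family, lie within 7 kb of one another, and all 4 rose, by 1.26 to 1.69.

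Several of the largest KO changes were at regions that were almost closed without Dex. One 4.4 kb from the TSS of Ube2s, which encodes a ubiquitin-conjugating enzyme of the anaphase-promoting complex, had the largest fold change. It held 7.82, 8.18, 7.37 and 9.97 CPM in KO Dex and 0.889, 0.284, 0.397 and 0.635 CPM in KO vehicle libraries (4.04 ± 0.23, adjusted p = 6.05e-25). A region inside Fmn1, a formin gene of actin assembly, had 5.12, 5.43, 7.15 and 6.39 CPM against 0.254, 0.639, 0.662 and 0.181 CPM in the same groups (3.79 ± 0.26, adjusted p = 8.7e-21). Low vehicle counts make the size of such changes less precise than their direction. Others of this kind lay near Slc31a2, a copper transporter gene (3.78 ± 0.32), Cyp7a1, whose enzyme opens the classical route of bile acid synthesis in liver (3.77 ± 0.23), and Hs6st1, a heparan sulfate sulfotransferase gene, at 252.2 kb (3.67 ± 0.28). Regions near Ahcy, which encodes the enzyme that breaks down S-adenosylhomocysteine (3.46 ± 0.18), Enpp6, a choline phosphodiesterase gene (3.35 ± 0.20), and Crispld2, a gene of a secreted lipopolysaccharide-binding protein (2.45 ± 0.14), also rose. A region inside Deptor, which encodes an inhibitor of mTOR, rose by 2.90 ± 0.17, to 13.3 CPM in KO Dex against 1.94 CPM in KO vehicle libraries. One near chr10:59974154-59975338, with no gene assigned, had 33.6, 38.2, 29.0 and 37.2 CPM in KO Dex and 3.05, 2.56, 4.37 and 2.72 CPM in KO vehicle (3.55 ± 0.13, adjusted p = 2.47e-34). It lies next to a region of Ddit4, and was itself slightly higher with IL4, at 4.01 to 6.59 CPM.

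**Figure D2:**
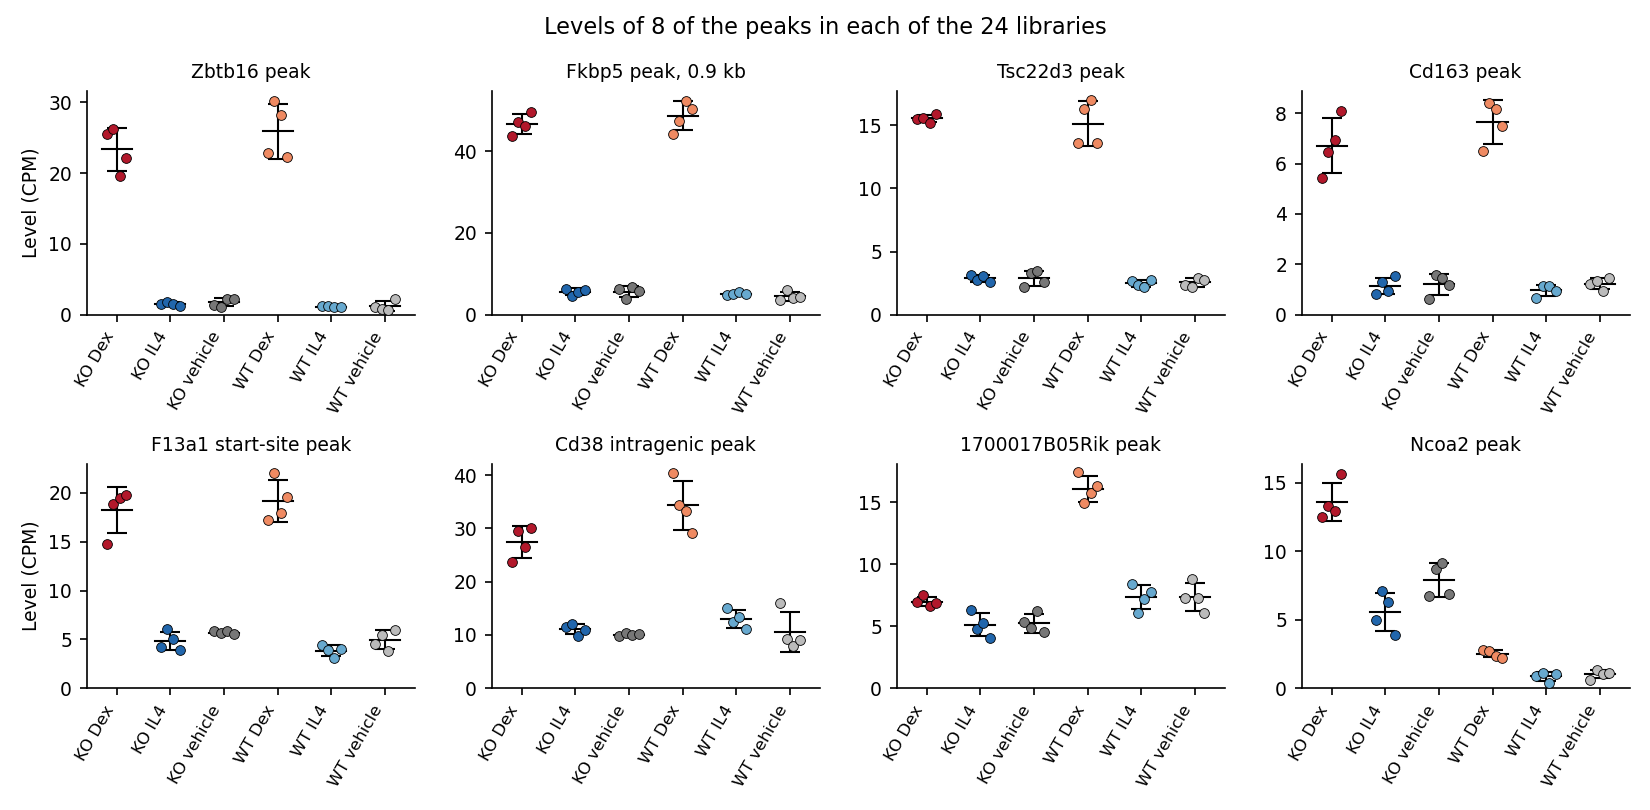
Level (CPM) of 8 of the regions in each of the 24 libraries, by group; points are libraries, lines the mean and bars the SD of 4 libraries. In all 8 panels the KO Dex libraries lie above every KO IL4 and KO vehicle library, and the 1700017B05Rik and Ncoa2 regions also sit at different levels in KO and WT cells.

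Textbook targets of the glucocorticoid receptor held more of the regions than genes at large. Of 360 peaks assigned to 34 such genes, 23 (6.39%) were among the regions, beside 0.474% of all peaks with a gene, and they belonged to 12 genes. In KO Dex 22 of the 23 rose, the exception being the uneven Zbtb16 region above. This list was known to respond to Dex in these data when the regions were defined, so the count is a description. Tsc22d3 encodes GILZ, a mediator of anti-inflammatory glucocorticoid effects. Its region at chrX:140513341-140513765 had 15.5, 15.6, 15.2 and 15.9 CPM in KO Dex, against 2.16, 3.34, 3.44 and 2.63 CPM in KO vehicle libraries, and rose by 2.45 ± 0.14 (adjusted p = 1.2e-25). A further region 3.6 kb from its TSS rose by 2.17 ± 0.15.

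Of the other target genes, Pik3ip1, which encodes an inhibitor of phosphoinositide 3-kinase, had a region 1.6 kb from its TSS with 12.6, 11.3, 11.9 and 13.7 CPM in KO Dex and 2.03, 2.48, 2.78 and 2.27 CPM in KO vehicle libraries (2.42 ± 0.15, adjusted p = 9.56e-23). Ddit4, which encodes the mTOR inhibitor REDD1, rose by 1.87 ± 0.15 at 18.3 kb. Il1r2, the decoy receptor of interleukin 1, rose by 1.73 ± 0.20 at 54.4 kb, and Rgs2, a regulator of G protein signalling, by 1.19 ± 0.15 at 74.3 kb. Glul, the glutamine synthetase gene, rose by 1.72 ± 0.18 at a region inside the gene.

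The clock repressor Per2 had a region inside the gene (chr1:91436336-91436862) with 9.03, 7.04, 7.75 and 6.95 CPM in KO Dex and 3.05, 1.92, 1.85 and 1.81 CPM in KO vehicle libraries. It rose by 1.89 ± 0.17 (adjusted p = 3.14e-15), and it was the single region found among 122 peaks of the clock genes (0.82%). Of all peaks with a gene 0.474% were regions, and a single region does not set these shares apart. The KLF family of zinc finger factors had 3 regions among 201 peaks (1.49%). Those of Klf9 rose by 1.95 ± 0.30 and 1.77 ± 0.12 and that of Klf7 by 1.36 ± 0.17. The regions of Per2 and Klf9 were also counted among those of the receptor's target genes.

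Receptors with which macrophages clear dying cells and debris had 6 regions among 376 peaks (1.6%, against 0.474% of all peaks with a gene). All 6 regions rose in KO Dex. Cd163, the scavenger receptor for haemoglobin bound to haptoglobin, had 3 of them across 43 kb. The one 25.3 kb upstream (chr6:124279008-124279727) had 5.42, 6.44, 6.92 and 8.07 CPM in KO Dex and 0.635, 1.56, 1.46 and 1.18 CPM in KO vehicle libraries, and rose by 2.48 ± 0.20 (adjusted p = 8.33e-17). Those inside the gene rose by 1.61 ± 0.16 and 1.62 ± 0.16. Mertk, with which phagocytes recognise apoptotic cells, had a broad region of 51.6, 50.1, 48.6 and 49.7 CPM in KO Dex and 18.5, 20.6, 23.4 and 20.2 CPM in KO vehicle. The Dex rise was 1.32 ± 0.08 and the IL4 rise 0.27 ± 0.09 (adjusted p = 0.0108). Marco, a scavenger receptor gene for bacteria and particles, rose by 0.99 ± 0.14 and Stab2, a hyaluronan clearance receptor gene, by 1.23 ± 0.28. The regions of Cd163 and Mertk were also counted among those of the receptor's target genes. This share is therefore a description that is not separate from theirs.

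Genes of iron and haem handling had 5 regions among 111 peaks (4.50%, against 0.474% of all peaks with a gene), of which 3 were those of Cd163. These 3 were already counted both among the receptor's target genes and among the clearance receptors. Hp, which encodes haptoglobin, had a region at its TSS with 15.9, 15.4, 17.5 and 17.5 CPM in KO Dex and 9.14, 6.25, 9.0 and 8.89 CPM in KO vehicle libraries (1.08 ± 0.11, adjusted p = 2.63e-12). Hmox1, the haem oxygenase gene, had 26.3, 32.1, 32.2 and 20.7 CPM in KO Dex and 20.9, 15.5, 18.9 and 14.1 CPM in KO vehicle. These groups overlapped, and the value of 0.75 ± 0.24 did not pass (adjusted p = 0.0665). It passed with DESeq2 (0.74), with all 24 libraries and with a replicate block (0.755 each), and without KO Dex replicate 4 (0.87) or KO IL4 replicate 1 (0.75).

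Other gene lists held few regions or none. The share over all peaks with a gene was 0.474%, at which lists of this size would also hold few. The counts are therefore not read as a result about the lists. None of the 367 peaks of IL4 and STAT6 targets, the 251 of tissue repair and matrix genes or the 116 of interferon-stimulated genes was a region. For the first of these lists the limit on IL4 in the choice bears directly on that count. Inflammatory cytokines and NF-kB targets had 1 region among 372 peaks, at Tnfaip3, which encodes A20, an inhibitor of NF-kB. It had 7.22, 8.32, 7.15 and 8.29 CPM in KO Dex, 6.18, 6.32, 6.09 and 5.84 CPM in KO IL4 and 3.68, 3.69, 3.44 and 4.72 CPM in KO vehicle libraries. Dex raised it by 1.04 ± 0.14 and IL4 by 0.60 ± 0.15, and Dex exceeded IL4 by 0.44 ± 0.13 (adjusted p = 0.00325). Map2k6, a kinase gene of the p38 pathway, had a Dex rise of 1.23 ± 0.13 and an IL4 rise of 0.39 ± 0.15. Of lipid genes, Acadl, of fatty acid oxidation, rose by 1.76 ± 0.20. Of macrophage lineage genes Mitf, a transcription factor gene, rose by 1.29 ± 0.18. Of the markers of other cells only Flt3, a receptor gene of dendritic cells and their precursors, held a region, which had 9.73, 10.3, 10.4 and 12.1 CPM in KO Dex and 3.55, 3.62, 4.50 and 3.81 CPM in KO vehicle.

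The regions were spread over many genes. A gene was assigned to 497 of them, 423 from the authors' deposited table and 74 as the nearest listed TSS within 50 kb, and 72 had none. The 399 genes make up 2.40% of the 16605 genes with an assigned peak, and 339 of them had 1 region. At 8 genes there were 4 or more, and 119 regions (20.9%) lay within 10 kb of another. Which gene a region acts on is not known from its nearest TSS.

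F13a1, which encodes the A chain of coagulation factor XIII and is used as a marker of alternatively activated macrophages, had the most, 9 of its 29 peaks across 218 kb. The one at the TSS (chr13:37048715-37050011), which covers the promoter printed above, had 14.8, 18.9, 19.5 and 19.8 CPM in KO Dex, 4.26, 6.09, 5.07 and 3.92 CPM in KO IL4 and 5.84, 5.61, 5.83 and 5.53 CPM in KO vehicle libraries. It rose by 1.75 ± 0.12 with Dex (adjusted p = 3.99e-20). Of the 9, 7 rose, 1 was not tested for low counts, and 1 at 21.5 kb did not pass, with 0.56 ± 0.23 (adjusted p = 0.0922). None of the 8 tested was called with IL4.

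Cd38 encodes an ectoenzyme that consumes NAD. Its 5 regions lie within 27 kb around the TSS, and all rose in KO Dex, by 0.94 to 1.5. The strongest, inside the gene at chr5:43881805-43882568, had 23.7, 29.6, 26.5 and 30.1 CPM in KO Dex and 9.78, 10.4, 9.93 and 10.2 CPM in KO vehicle libraries. The region on the promoter printed above had 10.6, 10.7, 8.80 and 9.25 CPM in KO Dex against 4.19, 4.68, 6.75 and 5.17 CPM in KO vehicle, and rose by 0.98 ± 0.14. The 6 regions of Fmn1 lie inside the gene across 55 kb and all rose, by 0.93 to 3.79. All 4 regions of Klhl6, which encodes a substrate adapter of the cullin 3 ubiquitin ligase, rose by 1.02 to 2.69, as did all 4 of Pik3r1, the gene of the p85 subunit of phosphoinositide 3-kinase, by 0.86 to 1.94. The 4 regions of the uncharacterised gene 4930533N22Rik rose by 1.75 to 2.99. The highest, with at most 2.62 CPM in a KO Dex library, was not called with DESeq2. A region left without an adjusted p there also counts as not called.

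IL4 left most of the regions near vehicle in KO cells too. Of the 560 tested, 30 (5.36%) rose in KO IL4 against KO vehicle and 33 (5.89%) fell, whereas 17.3% of all tested peaks rose and 13.8% fell. The regions' IL4 change had a median of 0.01 and ran from -1.44 to 1.31, and 477 lay within 0.5 of no change. That share was not counted over all peaks, where small IL4 changes were common too. On the log2(CPM + 0.5) scale the quartiles of KO IL4 minus KO vehicle were -0.13 and 0.22 for the regions. Over all peaks they were -0.18 and 0.29. In the direct comparison, 546 (97.5%) were higher in KO Dex than in KO IL4, beside 20.5% of all tested peaks, and none was lower, beside 22.4%. Both comparisons with vehicle share the KO vehicle libraries. Of the regions called higher with Dex, 480 were not called with IL4, 30 were also higher with it and 33 lower. In no region did the IL4 change exceed that of Dex.

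**Figure D3:**
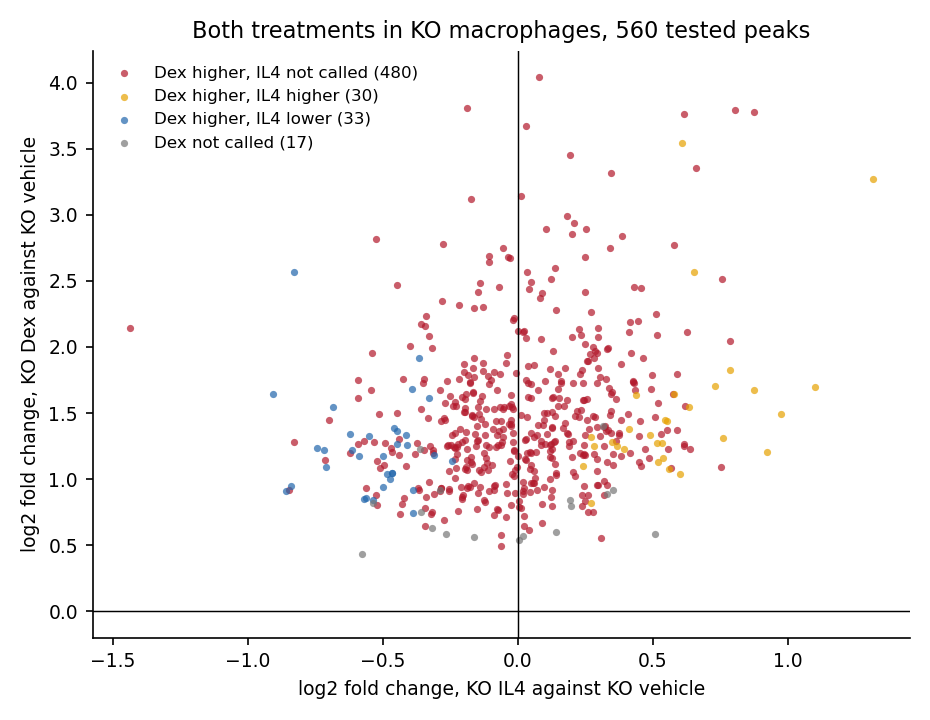
Log2 fold change in KO Dex (vertical) and in KO IL4 (horizontal), each against KO vehicle, for the 560 tested regions; colours give the calls at an adjusted p below 0.05. The cloud lies wholly above 0 on the Dex axis, from 0.43 to 4.04, and is centred near 0 on the IL4 axis.

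Regions that IL4 also opened in KO cells included several with low levels. At a region 171.4 kb from Redrum, a long noncoding RNA gene, the level was 3.61, 5.50, 4.97 and 5.32 CPM in KO Dex, 1.32, 1.46, 0.83 and 1.68 CPM in KO IL4 and 1.14, 0.426, 0.265 and 0.363 CPM in KO vehicle libraries. The rise was 3.27 ± 0.27 with Dex and 1.31 ± 0.36 with IL4 (adjusted p = 0.00271), the largest IL4 rise among the regions. IL4 also opened regions near Trmt12, a transfer RNA modification gene (1.1 ± 0.27), Grem1, a gene of a secreted BMP antagonist (0.98 ± 0.34), and Tet3, which encodes an enzyme that oxidises methylated cytosine (0.92 ± 0.26). At Tet3 Dex and IL4 did not differ beyond the spread, with 2.01, 2.35, 2.86 and 3.14 CPM in KO Dex and 2.03, 2.93, 2.40 and 1.84 CPM in KO IL4 (0.28 ± 0.21, adjusted p = 0.292). At Grem1 that difference was 0.52 ± 0.25 (adjusted p = 0.0931).

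In other regions IL4 moved accessibility the opposite way to Dex. A region at chr17:26504065-26505683 covers the promoter window of Gm34455, though it was assigned no gene by its nearest listed start. Its level was 47.6, 49.0, 55.5 and 47.8 CPM in KO Dex, 19.3, 15.8, 13.1 and 13.5 CPM in KO IL4 and 34.7, 26.3, 22.8 and 23.9 CPM in KO vehicle libraries. It rose by 0.95 ± 0.10 with Dex, while IL4 gave -0.84 ± 0.11 (adjusted p = 1.35e-07), and the 3 groups did not overlap. Inside Rab31, which encodes a small GTPase of vesicle traffic, a region had 15.6, 22.3, 16.6 and 20.6 CPM in KO Dex, 1.93, 1.93, 1.94 and 1.84 CPM in KO IL4 and 2.67, 3.83, 2.12 and 3.99 CPM in KO vehicle libraries. Here Dex gave 2.57 ± 0.14 and IL4 -0.83 ± 0.22 (adjusted p = 0.00166). A region inside Nr1h4, 21.2 kb from the TSS of Gas2l3, a gene of a cytoskeletal linker protein, fell with IL4 by 0.91. One near Ap1s2, an adaptor subunit gene of clathrin coats, fell by 0.86. Among the regions with the highest levels, one at chr6:72161769-72162850, on the promoter window of Gm38832, had 52.2 to 60.7 CPM in KO Dex, 18 to 18.5 CPM in KO IL4 and 23.6 to 28.4 CPM in KO vehicle libraries.

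In KO cells the Dex difference was present in every region and mostly smaller than in the WT cells that chose them. On the log2(CPM + 0.5) scale KO Dex exceeded KO vehicle in all 569, by 0.29 to 3.43 with a median of 1.11, and by 0.5 or more in 554. The WT median was 1.24. KO was below WT in 473 regions (83.1%). Because the regions were chosen for high WT differences, the same rule was also applied with KO in place of WT, which chose 444 peaks. In that list, chosen on KO, KO was below WT in 284 (64.0%), with medians of 1.23 in KO and 1.34 in WT, beside 49.3% of all peaks. With TMM-scaled levels the shares were 84.5%, 65.8% and 50.4%. No test is given because WT values made the choice. The lists share 329 peaks, 57.8% of the regions and 74.1% of the KO list. Of the regions outside the KO list, 167 missed it by the Dex difference of 1 alone and 22 by the IL4 limit alone.

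The order of the regions was much alike in both genotypes. Across the 569 regions the WT and KO differences had Pearson's r of 0.859 and Spearman's rho of 0.727, as a description over peaks that share libraries. The 23 regions with a WT difference of 2.5 or more had a KO median of 2.53 and a WT median of 2.79, and in all 23 the KO Dex and KO vehicle libraries did not overlap. The 292 regions with a WT difference below 1.25 had a KO median of 0.92 and a WT median of 1.1, and 259 of them did not overlap. The level had a median of -0.14 for KO Dex minus WT Dex and of 0.06 for KO vehicle minus WT vehicle, where the choice itself favours high WT Dex and low WT vehicle values. In the list chosen on KO these medians were -0.10 and -0.005, and over all peaks 0.04 and 0.03.

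**Figure D4:**
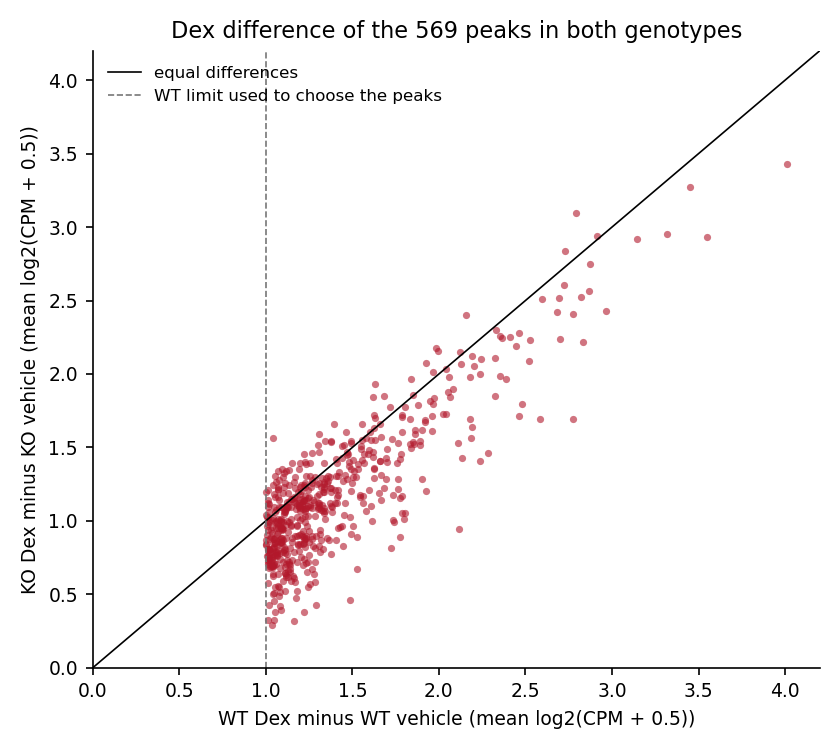
Dex minus vehicle in mean log2(CPM + 0.5) for the 569 regions, in KO (vertical) and WT (horizontal, used to choose the regions). All points lie above 0 on the KO axis, and 473 lie below the line of equal differences.

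Among the smallest KO changes were regions with low counts and regions with other levels in KO cells. One 55.2 kb from 1700017B05Rik (chr9:57317422-57318249) had 6.92, 7.51, 6.62 and 6.84 CPM in KO Dex, against 17.4, 14.9, 15.7 and 16.3 CPM in WT Dex. In KO vehicle libraries it had 5.33, 4.83, 6.22 and 4.53 CPM, against 7.26, 8.77, 7.27 and 6.08 CPM in WT vehicle. Its KO change of 0.49 ± 0.14 was still called (adjusted p = 0.00919). The neighbouring region at chr9:57318935-57319572, named after its values were seen, was lower still in KO cells, with 3.31, 2.48, 2.41 and 2.75 CPM in KO Dex and 1.65, 1.56, 2.65 and 1.18 CPM in KO vehicle. In WT it had 37.2, 35.6, 39.0 and 35.6 CPM with Dex and 17.5, 16.4, 17.4 and 17.3 CPM with vehicle. It rose in KO Dex all the same, by 0.73 ± 0.22 (adjusted p = 0.0165). A region inside Stox2 (chr8:47268078-47269158) had 9.23, 8.72, 9.48 and 8.52 CPM in KO Dex and 6.86, 5.18, 7.94 and 5.99 CPM in KO vehicle libraries, without overlap, and rose by 0.55 ± 0.13 (adjusted p = 0.00119). The lowest KO value was 0.43 ± 0.25 at chr2:163617747-163618345 (adjusted p = 0.274). Values near Wasf2, an actin regulator gene (0.54 ± 0.22), and Vps50, a gene of endosomal recycling (0.58 ± 0.32), did not pass either, nor did one at chr19:7304830-7305050 (0.57 ± 0.26). That of Clpx, a mitochondrial protease gene, passed narrowly (0.57 ± 0.20, adjusted p = 0.0428) and did not with DESeq2, with scaling by total counts, or without replicate 2, 3 or 4 of KO Dex or replicate 1, 3 or 4 of KO vehicle (0.40 to 0.61 over these 6 fits).

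A region 49.7 kb upstream of Ncoa2 (chr1:13423543-13423943) was the reverse case. It had 12.5, 13.3, 12.9 and 15.6 CPM in KO Dex and 6.73, 8.73, 9.14 and 6.89 CPM in KO vehicle, against 2.79, 2.75, 2.37 and 2.23 CPM in WT Dex and 0.605, 1.32, 1.04 and 1.13 CPM in WT vehicle libraries. Every KO library lay above every WT library. In KO cells it rose by 0.84 ± 0.12 with Dex (adjusted p = 2.96e-07) and fell by 0.54 with IL4 (SE 0.15, adjusted p = 0.0029). Genotype and the DNA around the altered allele cannot be told apart here. A region inside Tlr7, the gene of an endosomal RNA receptor, named after its values were seen, was likewise higher in KO cells. It had 49.5, 50.9, 44.6 and 47.3 CPM in KO Dex and 24.6, 26.8, 25.3 and 19.7 CPM in KO vehicle, against 24.1, 25.1, 28.1 and 27.6 CPM in WT Dex and 10.8, 11.6, 9.66 and 11.6 CPM in WT vehicle.

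The regions were further from a TSS than peaks at large. Among the 423 with a deposited distance, 11 (2.60%) lay within 1 kb of a TSS, against 9.67% of all 71942 peaks in that table. Over 100 kb away lay 14.7% of the regions and 9.65% of all peaks. The median distance was 23900 bases for the regions and 17900 bases for all peaks. They lay upstream of the TSS in 47.5% of cases, against 44.1%, and inside a RefSeq gene in 59.1% of 569, against 65.2% of 144411. An enhancer of the FANTOM catalogue was listed for 57 (13.5%), against 13.8%, so that most were outside that catalogue, like most peaks. The regions were longer, with a median of 527 bases against 392 for all peaks. The deposited distance table holds no peak of 1 kb or more, so broad regions such as those at the starts of Zbtb16 and F13a1 are not in these shares.

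**Figure D5:**
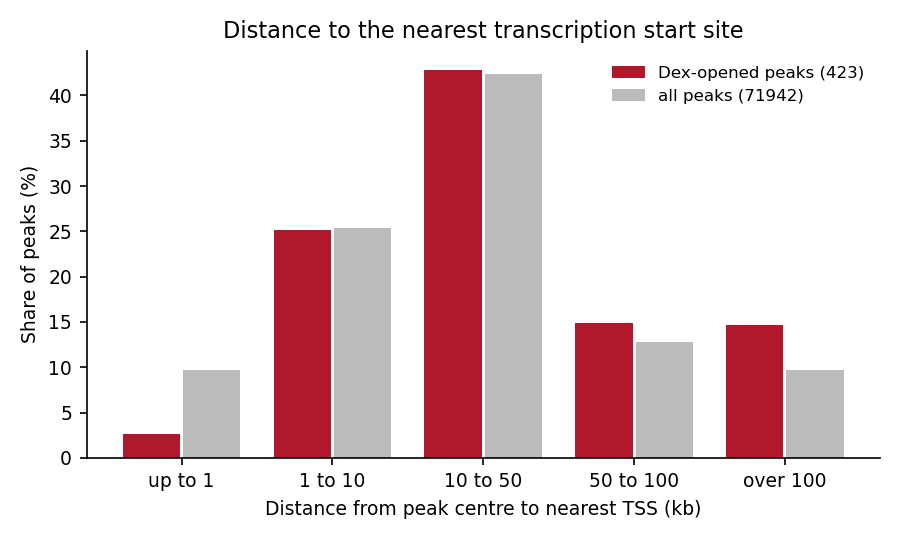
Share of peaks by distance from the centre to the nearest TSS, for the 423 Dex-opened regions and all 71942 peaks with a deposited distance. The bar up to 1 kb is 2.60% for the regions against 9.67% for all peaks, and the bar over 100 kb is 14.7% against 9.65%.

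Regions close to a TSS rose in KO Dex too. Usp54, a ubiquitin protease family gene, had 15.7, 17.6, 14.6 and 15.2 CPM in KO Dex and 5.46, 6.10, 5.03 and 4.90 CPM in KO vehicle libraries at 0.3 kb (1.58 ± 0.12, adjusted p = 1.48e-18). Klhl6 had 12.9, 14.8, 15.8 and 15.2 CPM in KO Dex, 4.36, 4.93, 4.61 and 3.92 CPM in KO IL4 and 6.35, 6.03, 4.77 and 6.35 CPM in KO vehicle at its TSS, with a rise of 1.36 ± 0.12 with Dex and a fall of 0.45 with IL4 (SE 0.15, adjusted p = 0.0153). Regions at Fry (1.60 ± 0.23) and Nt5c2, a nucleotidase gene (1.55 ± 0.27), rose too. Of the promoters printed above for their motif matches, that of Orm2, an acute-phase protein gene, had 3.01, 2.68, 2.26 and 3.19 CPM in KO Dex and 1.40, 1.49, 0.927 and 1.45 CPM in KO vehicle (1.09 ± 0.23, adjusted p = 0.000266). The region on the Gm35268 window had 2.41, 1.81, 2.11 and 2.30 CPM in KO Dex and 0.762, 0.994, 0.530 and 0.363 CPM in KO vehicle (1.67 ± 0.29), and rose with IL4 too (0.87 ± 0.33, adjusted p = 0.0339). That on the 4930430J02Rik window rose by 0.78 ± 0.20 with Dex.

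The limits of the choice cut through a continuum. Just inside the Dex limit, regions assigned to Ly86 and Stox2 had WT differences of 1.000 and 1.001, and just outside it peaks of Col4a2 and Herpud2 had 0.999. Their KO differences were 0.872, 0.835, 0.779 and 0.687. At the IL4 limit, a region near Trmt12 was kept with a WT IL4 difference of 0.499, while another Cd163 peak, with a WT Dex difference of 2.20, was left out with -0.502.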

How the data were processed

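Nuclei of cultured macrophages were tagged by Tn5 transposase and sequenced as read pairs, per the labels' protocols. Listed in the submitters' processing notes are edgeR, featureCounts, MACS2, SAMtools, Bowtie2 and fastp with the mm10 build, and their roles, versions and settings are not given in the sources used here. As deposited by the authors, the data are whole-number counts per peak and library without normalisation, and a table of the authors' log2 fold changes and p-values, unadjusted and adjusted, with the nearest TSS. The deposited log2 fold changes had a slope of 1.00 against those computed here.

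The members and gene lists were chosen with earlier results of these data known. Levels are CPM of the column sum, as in the rule. Tests used edgeR 4.0.16 in R 4.3.3 on the 12 KO libraries (filterByExpr, TMM factors 0.9437 to 1.051, robust quasi-likelihood F tests), adjusted by the Benjamini-Hochberg method over 125167 peaks. The SE is the log2 fold change divided by the square root of F. The KO Dex comparison was also run on simulated data. It recovered 24 of 67 peaks changed 1.5-fold (35.8%), 49 of 67 at 2-fold (73.1%) and 61 of 66 at 3-fold (92.4%). Beside these recovered peaks there were 15 false calls among 123047 peaks. Far fewer peaks were changed there than were called in the data, so these rates may not carry over. Named regions were the 12 with the largest WT difference, the 8 largest and 8 smallest KO changes, up to 4 per gene list, genes with 4 or more regions, the 6 nearest a TSS, the 5 highest, and the 4 largest IL4 calls each way. Some regions with printed values lie outside these sets, among them those of Pik3ip1, Ddit4, Il1r2, Rgs2, Glul, Orm2 and Gm35268. Their alternative values are not in the count of named regions below. Alternatives were other scalings, no filter, DESeq2 1.42.0, all 24 libraries, a replicate block, single libraries left out, and other limits in the rule.

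Peaks absent from the second table took the gene of its closest TSS up to 50000 bases away. Promoter windows were read from RefSeq; peak sequences were not used here. A result at 1 gene of the gene lists is not reported here.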

Additional observations from a re-analysis of the deposited data

Results flagged for a closer look

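In 13 of 216 groups of 4 libraries, 1 library lay far from the other 3, by a gap above Dixon's limit, which chance alone gives in about 1 group in 20. The share of counts in the regions was 0.206% in WT IL4 replicate 4, above the other WT IL4 libraries. In KO Dex, replicate 1 was low at the Gas2l3 region, with 5.52 CPM against 7.44 to 7.60 CPM in the others. Replicate 3 was high at the region of chr17:26504065-26505683, with 55.5 CPM against 47.6 to 49.0 CPM, and at Trmt12, with 4.21 CPM against 2.80 to 2.95 CPM. Replicate 4 was high at Wasf2, with 3.59 CPM against 2.21 to 2.41 CPM. In KO IL4, replicate 4 was low at Rab31, with 1.84 CPM against 1.93 to 1.94 CPM. Replicate 2 was high at 4930533N22Rik, with 0.617 CPM against 0.0923 to 0.160 CPM, replicate 3 at Hp, with 9.78 CPM against 8.15 to 8.41 CPM, and replicate 1 at Mitf, with 4.76 CPM against 2.86 to 2.96 CPM. In KO vehicle, replicate 1 was high at Per2, with 3.05 CPM against 1.81 to 1.92 CPM, and at Trmt12, with 1.65 CPM against 0.816 to 0.927 CPM. Replicate 3 was high at Fanci, with 1.19 CPM against 0.635 to 0.639 CPM, and replicate 2 low at Hp, with 6.25 CPM against 8.89 to 9.14 CPM.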

How the results depend on the processing

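The count of regions called higher in KO Dex against KO vehicle, 543, was 509 with DESeq2, 540 with total counts, 545 with size factors, 549 with a replicate block, 551 without the filter and 554 with all 24 libraries, and none was called lower in any of these fits. Leaving out 1 library at a time gave 521 to 581, from the KO libraries left out of the fit and the WT libraries left out of the rule. Deviations from the group means correlated by 0.006 to 0.151 between same-numbered libraries and by -0.124 to 0.057 between different-numbered ones, and in 22 of 24 comparisons a library correlated best with its own number. This is a hint from the data, not the design, and since not every value passed 0.1 the numbers were not taken as pairs. With the replicate block the counts over all tested peaks were 11693 higher and 10726 lower, against 8659 and 8935. DESeq2 called 5866 and 5538. With total counts, which move the median of all peaks to -0.06, they were 6899 and 11061, and the median change of the regions was 1.29. In KO IL4 the counts of regions higher and lower, 30 and 33, were 21 and 23 with DESeq2, 38 and 41 with the replicate block and 37 and 26 with total counts. Leaving out 1 library gave 22 to 32 regions higher and 24 to 35 lower, and a median of -0.01 to 0.02, and in KO Dex against KO IL4 535 to 552 higher.

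Other limits and scalings in the rule changed the list itself. With TMM scaling in the rule 692 peaks were chosen, 653 of them called higher in KO Dex, with a median KO change of 1.27 and 50.1% also in the list chosen on KO. With a pseudocount of 0.1 there were 788 peaks, 644 called, a median of 1.2 and 40.1%. With a pseudocount of 2 there were 257 peaks, 256 called, a median of 1.67 and 82.5%. With a Dex difference of at least 1.5 there were 159 peaks, 158 called, a median of 1.93 and 89.9%. With an IL4 difference below 0.25 there were 343 peaks and 332 called. Leaving out 1 WT library gave 544 to 623 peaks, of which 53.1% to 59.5% were in the KO list and 2.08% to 2.84% within 1 kb of a TSS. Over the KO libraries and these, the median KO change was 1.29 to 1.37. Within 2 kb lay 6.38% and within 10 kb 27.7%. Of 1224 alternative values of 68 named regions, 1209 kept direction and side of the threshold, 9 were no longer called, 6 were newly called and 0 reversed. Most of those no longer called were Clpx, and most of those newly called Hmox1. Depth limits the weakest regions, where a KO vehicle library held as few as 0 counts.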
